A study of Mus musculus with 6 samples.

Results

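The genes described here are the nuclear-encoded genes of the mitochondrial respiratory chain and ATP synthase in splenic CD4+ T cells of the mouse. They were chosen by symbol from the deposited table: symbols that begin with Nduf, Uqcr or Atp5, or with Cox and a digit of 4 to 8, together with Sdha, Sdhb, Sdhc, Sdhd and Cycs. This gave 94 of the 38216 gene symbols, after 1 pseudogene symbol ending in -ps was left out. By complex they were 36 genes of complex I, 4 of complex II, 8 of complex III, cytochrome c, 19 of complex IV, 16 of complex V and 10 assembly factors and other genes caught by the rule. No mitochondrially encoded gene was in the table used here, so the subunits that the mitochondrial genome contributes to complexes I, III, IV and V were not analysed here.

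RNA came from CD4+ cells of spleens of naive IL21-VFP reporter mice on the C57BL/6 background at 28 days of age, in which cells that transcribe the cytokine gene Il21 carry the fluorescent protein VFP. Sorting used this signal and ICOS, a costimulatory receptor that T cells display after activation. The 3 pools were ACT_IL21 (VFP+ ICOS+), ACT (VFP- ICOS+) and N (VFP- ICOS-), with 2 libraries each, and all of them carried the same reporter, strain, age and tissue. Whether paired libraries of a pool stem from different animals is not stated in the labels, so the p-values here reflect library-to-library spread that may be technical. The design sets each ICOS+ pool against N, and sets the 2 ICOS+ pools against each other.

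The respiratory chain lies in the inner mitochondrial membrane. Complexes I and II pass electrons to ubiquinone, complex III passes them on to cytochrome c, and complex IV hands them to oxygen, while protons pumped on the way drive ATP synthase, also called complex V. Each large complex has catalytic core subunits and many small accessory subunits, and needs assembly factors that are not part of the finished enzyme. Resting T cells live largely on respiration, and activated T cells are known to enlarge their mitochondria and to raise both glycolysis and respiration.

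Icos and Il21, the genes behind the sort signals, followed the labels. Icos had 185 and 227 TPM in ACT_IL21, 254 and 241 TPM in ACT, and 35.7 and 31.9 TPM in N, where TPM is a transcript abundance scaled for transcript length and to a fixed total per library. Il21 had 44.5 and 51.9 TPM in ACT_IL21, was listed at 0 and at 1.26 TPM in ACT, and was listed at 0 in both N libraries. Cd4 had 534 and 567 TPM in ACT_IL21, 268 and 236 TPM in ACT, and 358 and 316 TPM in N, so ACT was lowest. On a list of 10 T cell genes, 8 had a positive log2 fold change in ACT against N, and Cd4 and Cd247 a negative one. Between 12095 and 12396 genes per library reached 1 TPM. Natural killer and NKT cell markers, a list of 13 genes of which none was at 0 in every library, summed to 76.3 and 81.7 TPM in ACT_IL21, 733 and 717 TPM in ACT, and 64.8 and 73.8 TPM in N. B cell markers, of which 2 of 10 were at 0 throughout, summed to 21.5 and 26.0 TPM in ACT_IL21, 22.0 and 24.4 TPM in ACT, and 6.40 and 4.83 TPM in N, and the CD8 T cell genes Cd8a and Cd8b1 to 9.88 and 3.41 TPM in ACT_IL21, 5.59 and 7.41 TPM in ACT, and 27.0 and 19.0 TPM in N. Myeloid and dendritic cell markers, with 2 of 10 at 0, reached 30.8 to 70.6 TPM, and erythroid markers, with none of 7 at 0, reached 28.9 to 156 TPM. A list of 12 cell cycle genes summed to 736 and 646 TPM in ACT_IL21, 636 and 711 TPM in ACT, and 389 and 521 TPM in N. Pcna alone had 308 to 539 TPM per library, so the sums say little of the other genes. The list's median log2 fold change was 1.99 in ACT_IL21 against N and 1.38 in ACT against N, beside 0.10 and 0.02 over all genes tested. In these comparisons 11 and 12 of the 12 genes were positive, against 58.3% and 51.9% of all genes. Over the 12 tested natural killer and NKT cell markers the median was -2.68 in ACT_IL21 against ACT, beside 0.08 over all genes tested. In ACT against N it was 2.72, and in ACT_IL21 against N it was 0.25. The part of these lists in the differences given below, from N and between the ICOS+ pools, was not tested. In bulk RNA, fewer cells of a type and less RNA per cell cannot be told apart.

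Respiratory chain genes were abundant transcripts in all 3 pools. Of the 94 genes, 85 reached 1 TPM in 2 or more libraries and were tested, and 81 of these had a mean of 10 TPM or more. The median of the tested members' mean levels was 64.5 TPM, against 14.9 TPM over all 13311 genes tested. Atp5b, the catalytic beta subunit of ATP synthase, stood first with a mean of 1833 TPM over the 6 libraries. Cox7a2l followed with 487 TPM and Cox4i1 with 447 TPM. Mean levels differed widely within a complex although the finished enzyme holds its subunits in fixed proportion: in complex III they ran from 29.4 TPM for Uqcr11 to 316 TPM for Uqcrh.

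**Figure D1:**
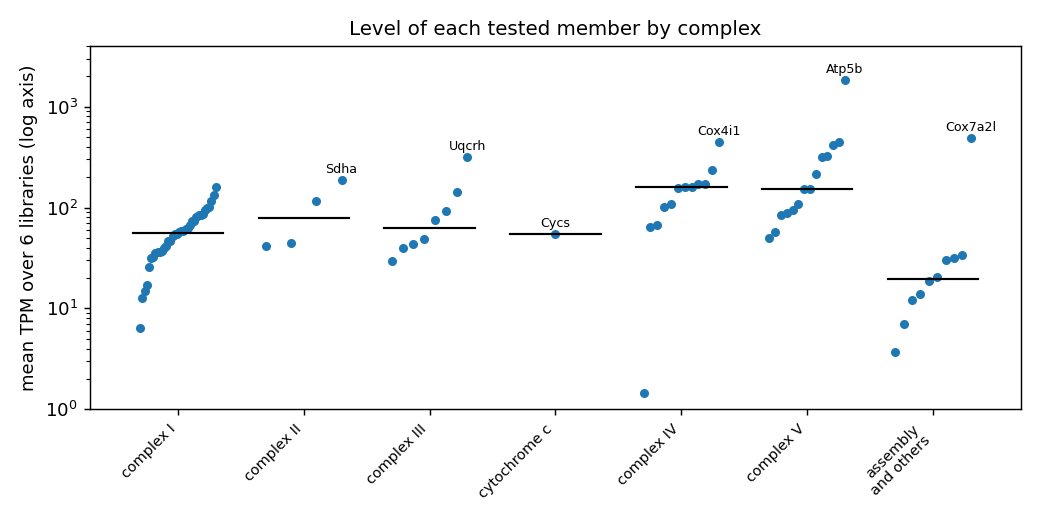
Mean TPM over the 6 libraries of each of the 85 tested members (points, log axis), arranged by complex, with the median of each complex as a line and, except in complex I, the most abundant member named. Complex IV and complex V had the highest medians, 158 and 152 TPM, and Atp5b alone reached 1833 TPM.

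9 members were not tested because they did not reach that level. The 7 genes Cox4i2, Cox6a2, Cox7a1, Cox7b2, Cox8b, Cox8c and Ndufa4l2 were listed at 0 in all 6 libraries. Cox6a2, Cox7a1 and Cox8b encode heart and skeletal muscle forms of complex IV subunits, Cox4i2 a form known from lung and low oxygen, and Cox7b2 and Cox8c forms known from testis. Atp5g2, 1 of 3 genes for the same mature c subunit of ATP synthase, had 1.32 TPM in the first ACT_IL21 library and was listed at 0 in the other 5 libraries. Atp5l2, annotated as a processed pseudogene, had 0.6 TPM in the first ACT library and was listed at 0 elsewhere.

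The summed level of the members was highest in ACT. It was 10250 and 10225 TPM in ACT_IL21, 11184 and 10925 TPM in ACT, and 9466 and 9425 TPM in N. The libraries of the 3 pools did not overlap, with a ratio of pool means of 1.17 for ACT over N and 1.08 for ACT_IL21 over N. The difference between ACT_IL21 and N depended on the scaling: after each library was divided by its median ratio to all libraries, the means were 9695 TPM in ACT_IL21 and 9665 TPM in N, while ACT stayed at 1.14 times N. In the same libraries the summed TPM of cytosolic ribosomal protein and T cell receptor genes, which takes part of the fixed total, was 95184 and 97603 in ACT_IL21, 117490 and 99797 in ACT, and 139060 and 119880 in N.

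**Figure D2:**
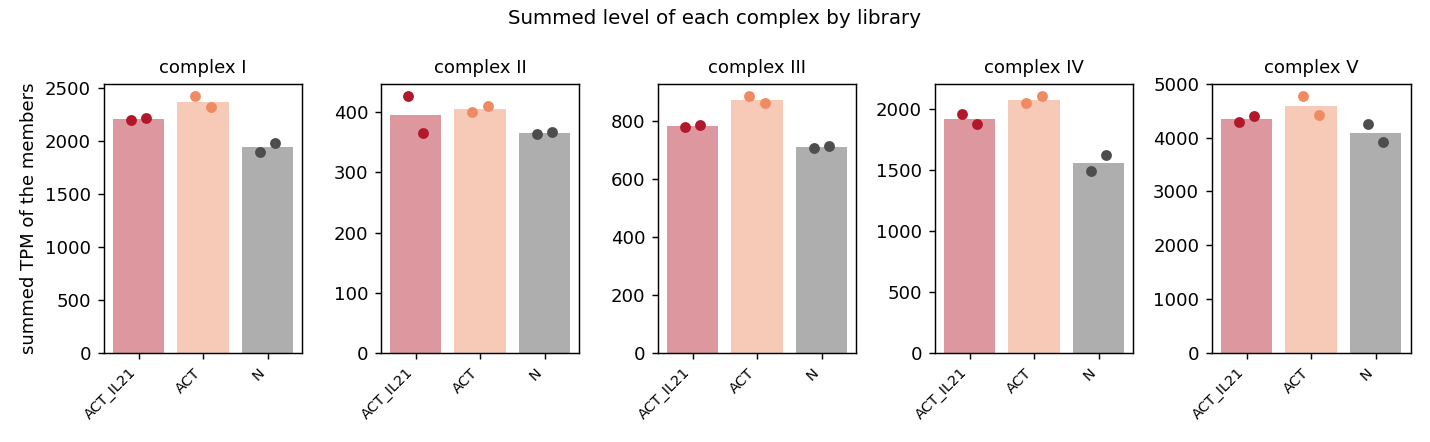
Summed TPM of the members of each complex in each library (points), with the mean of the 2 libraries of a pool as a bar. In complexes I, III, IV and V the libraries of ACT lie highest, those of ACT_IL21 in the middle and those of N lowest, with no overlap but narrow gaps in complex V, and in complex II the libraries of ACT_IL21 overlap with both other pools.

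Gene by gene, the members stood furthest from all genes in ACT against N. The test was limma on log2(TPM + 1) with all 6 libraries, and a gene was called at an adjusted p (Benjamini-Hochberg over the 13311 genes) under 0.05. In ACT against N, 3 of 85 members were called higher, where 4.15% of all genes were, and 0 were called lower, where 1.43% were. The called members, Cox6b1, Ndufa1 and Ndufb7, were therefore a share near that of all genes. At an unadjusted p under 0.05, 17 members were higher, 20% of the 85, against 11.6% of all genes, and 1 was lower, against 6.99%. Both ACT libraries lay above both N libraries for 41 members, 48.2%, against 25.2% of all genes, and below them for 5 members, 5.88%, against 21.9%. The median log2 fold change of the members was 0.28, and 0.02 over all genes tested. It kept its sign under every alternative processing tried, between 0.19 and 0.33, where that of all genes lay between -0.07 and 0.06. Some of these alternatives cannot change the log2 fold change of a gene, as listed at the end.

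ACT_IL21 against N gave the same direction with a lower median. In this comparison 1 member, Ndufa1, was called higher, where 3.82% of all genes were, and 0 were called lower, where 1.26% were. At an unadjusted p under 0.05 by limma, 14 members were higher, against 12.9% of all genes, and 3 were lower, against 5.75%. The ACT_IL21 libraries both lay above both N libraries for 38 members, 44.7%, against 31.5% of all genes, and below them for 7, against 19.9%. The members' median log2 fold change was 0.20, and 0.10 over all genes. Under median ratio scaling and quantile normalization the members' median was 0.09 and 0.08, beside all-gene medians of 0.00 and -0.05.

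Between the 2 ICOS+ pools no member passed the adjusted threshold. By limma, ACT_IL21 against ACT gave 0 members higher and 0 lower, where 0.796% and 1.15% of all genes were called. At an unadjusted p under 0.05, 2 members were higher, against 8.49% of all genes, and 3 were lower, against 6.37%. Both ACT_IL21 libraries lay above both ACT libraries for 10 members, 11.8%, against 24.5% of all genes, and below them for 22 members, 25.9%, against 17.3%. The median log2 fold change was -0.10 for the members and 0.08 over all genes, and under the alternatives it stayed between -0.18 and -0.07 for the members and between 0.01 and 0.09 over all genes. These 3 comparisons share libraries in pairs, so they are not independent of each other.

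Over all pools, limma's F test called 3 members, where it called 7.03% of all genes, and they were again Cox6b1 (adjusted p = 0.0289), Ndufa1 (0.046) and Ndufb7 (0.0495). The 4 ICOS+ libraries all lay above both N libraries for 26 members, where 15.7% of all genes did, and all lay below them for 2 members, Cox7a2l and Uqcrfs1, where 10.4% of all genes did. The 26 genes were spread over the chain: 11 of complex I, 6 of complex IV, 5 of complex V, and Sdhc, Uqcrq, Ndufaf2 and Atp5s.

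**Figure D3:**
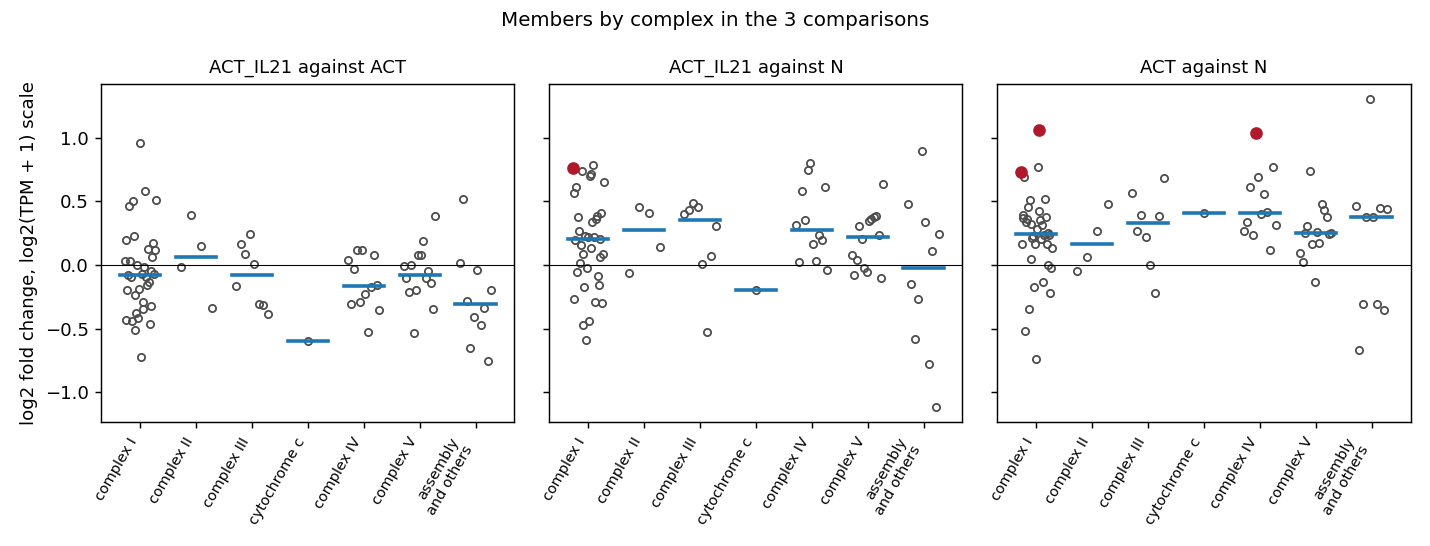
Log2 fold change on the log2(TPM + 1) scale of each tested member in the 3 comparisons, by complex. Filled red points passed an adjusted p of 0.05 (limma), and blue lines are medians. In ACT against N all 12 tested complex IV genes lie above 0, where 51.9% of all genes do, with a median of 0.41.

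The 3 called members are small accessory subunits. Cox6b1 encodes a subunit of complex IV on its intermembrane side, where the copies of the dimeric enzyme meet. It lies on chromosome 7 at 30616861-30626151 on the minus strand (GRCm38, GENCODE M21). Its level was 180 and 152 TPM in ACT_IL21, 174 and 235 TPM in ACT, and 98.6 and 97.9 TPM in N. All ICOS+ libraries stood above both N libraries, and ACT and ACT_IL21 overlapped. Cox6b1 rose in ACT against N by a log2 fold change of 1.03 ± 0.18 (SE, n = 2 against 2, adjusted p = 0.0174). The value for ACT_IL21 against N was 0.74 with an adjusted p of 0.0656.

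Ndufa1 encodes a one-pass membrane subunit of complex I that is needed to assemble the enzyme, and lies on the X chromosome at 37187588-37191163 on the minus strand. It had 145 and 164 TPM in ACT_IL21, 144 and 157 TPM in ACT, and 81.1 and 100.8 TPM in N. The ICOS+ pools had nearly the same level and did not overlap with N. Ndufa1 rose in ACT_IL21 against N by 0.76 ± 0.17 (log2, adjusted p = 0.0418) and in ACT against N by 0.73 ± 0.17 (adjusted p = 0.0465), and between ACT_IL21 and ACT it differed by 0.03 (adjusted p = 0.955).

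Ndufb7 encodes a complex I subunit of the membrane arm that faces the intermembrane space, and lies on chromosome 8 at 83566671-83571626 on the plus strand. Its level was 35.2 and 41.2 TPM in ACT_IL21, 47.5 and 49.7 TPM in ACT, and 25.5 and 20.4 TPM in N. The 3 pools did not overlap, with ACT highest and N lowest. Ndufb7 rose in ACT against N by 1.06 ± 0.21 (log2, adjusted p = 0.0292), and in ACT_IL21 against N the value was 0.71 (adjusted p = 0.117).

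These calls sit close to the threshold. Leaving out either N library, or either ACT_IL21 library, ended each of the 3 calls in ACT against N, with adjusted p of 0.063 to 0.157 for Cox6b1, 0.108 to 0.301 for Ndufa1 and 0.072 to 0.244 for Ndufb7. Leaving out the second ACT library also ended all 3, and leaving out the first ended those of Ndufa1 and Ndufb7. The call of Ndufa1 in ACT_IL21 against N was lost whichever library was left out (adjusted p of 0.0523 to 0.266). No exon of the 3 genes overlaps an exon of another gene in the annotation.

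**Figure D4:**
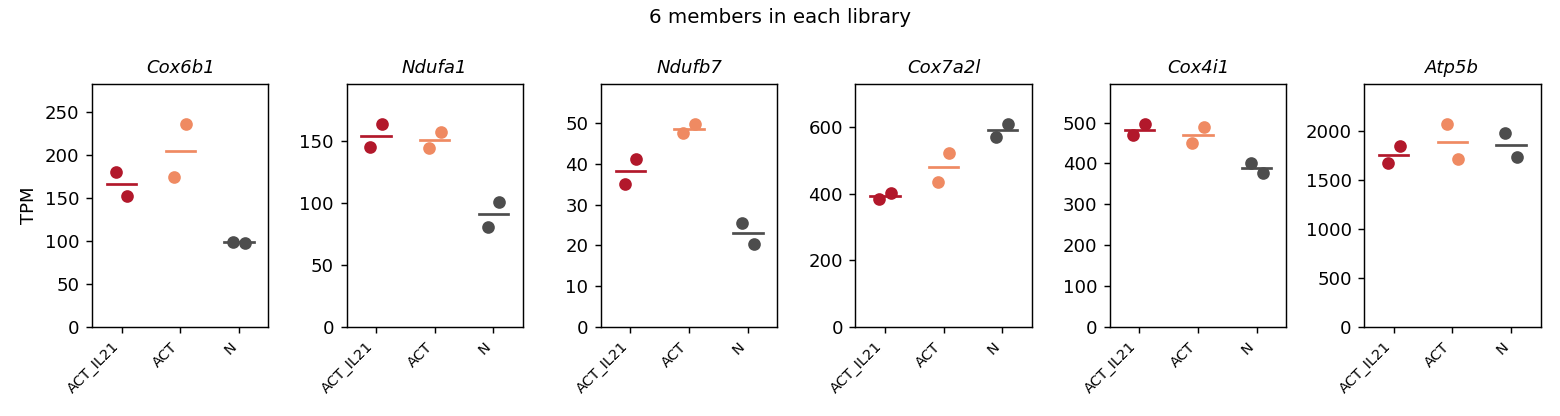
TPM of 6 members in each library (points), with the mean of each pool as a line. In Cox6b1, Ndufa1, Ndufb7 and Cox4i1 all ICOS+ libraries stand above N, in Cox7a2l they stand below N, and in Atp5b the pools overlap.

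The promoters of the 3 called members are shown, and beside them that of Cox6a1. These genes were all higher in the 4 ICOS+ libraries than in N, as were 26 members in all. Cox6a1 was not called, and its choice among the 26 followed no stated rule. Each promoter runs from 250 bases before to 50 bases after the RefSeq start of the gene (RefSeq, GRCm38.p6), on the gene's own strand. They are Cox6b1 at chr7:30626065-30626364 (minus), Ndufb7 at chr8:83566508-83566807 (plus), Ndufa1 at chrX:37191189-37191488 (minus) and Cox6a1 at chr5:115348909-115349208 (minus). The RefSeq starts of these genes differ from their GENCODE starts, and positions below are counted from the RefSeq start. Capitals mark matches, on either strand, to CCGGAAG, the core bound by ETS factors such as GABP, or to GCGCATGCG, the site of NRF1, both known regulators of respiratory chain genes.
Cox6b1: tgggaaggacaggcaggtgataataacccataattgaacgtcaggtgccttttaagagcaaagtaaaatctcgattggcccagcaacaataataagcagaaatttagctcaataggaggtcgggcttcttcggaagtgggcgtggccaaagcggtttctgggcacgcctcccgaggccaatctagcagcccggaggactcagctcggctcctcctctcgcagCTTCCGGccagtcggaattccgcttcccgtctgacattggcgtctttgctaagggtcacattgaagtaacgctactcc
Ndufb7: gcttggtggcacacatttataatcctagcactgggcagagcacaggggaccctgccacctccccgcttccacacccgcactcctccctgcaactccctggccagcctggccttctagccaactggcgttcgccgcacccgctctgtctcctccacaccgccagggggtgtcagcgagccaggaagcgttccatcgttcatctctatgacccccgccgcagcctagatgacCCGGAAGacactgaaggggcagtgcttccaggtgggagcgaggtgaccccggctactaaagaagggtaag
Ndufa1: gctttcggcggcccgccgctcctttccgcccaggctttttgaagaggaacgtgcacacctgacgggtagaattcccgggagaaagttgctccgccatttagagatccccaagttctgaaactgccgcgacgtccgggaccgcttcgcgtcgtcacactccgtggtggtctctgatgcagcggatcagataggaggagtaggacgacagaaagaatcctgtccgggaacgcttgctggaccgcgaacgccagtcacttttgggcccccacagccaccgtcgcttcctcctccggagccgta
Cox6a1: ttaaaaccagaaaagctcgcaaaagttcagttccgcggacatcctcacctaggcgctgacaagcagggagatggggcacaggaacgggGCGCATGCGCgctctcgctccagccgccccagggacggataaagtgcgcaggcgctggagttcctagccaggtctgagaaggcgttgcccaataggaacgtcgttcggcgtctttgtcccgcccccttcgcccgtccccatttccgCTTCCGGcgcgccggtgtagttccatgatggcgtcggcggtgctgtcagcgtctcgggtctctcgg
Cox6b1 and Ndufb7 each held 1 match to CCGGAAG just upstream of the start, at -28 and -20, counted to the base before the start as -1. Cox6a1 held it at -16 and held the palindromic NRF1 site further upstream, and Ndufa1 held neither. The 4 motifs searched were those 2, AAGATGGCG (YY1) and AAGGTCA (the site of the ERR receptors), on both strands, with no match to the last 2 in these 4 promoters. Atp5j and Cox7a2l were searched too and are not printed. Atp5j, also higher in all 4 ICOS+ libraries, held AAGATGGCG at -88 and CCGGAAG at -61 in its promoter at chr16:84834927-84835226. Its other promoter, and that of Cox7a2l, held no match.

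Over the 70 tested members with a promoter in the RefSeq table, 24.3% held CCGGAAG, against 21.6% of all tested genes with a promoter and 8.9% of all promoters. The NRF1 site was in 14.3% of the members, against 4.4% of tested genes and 1.8% of all promoters. AAGATGGCG was in 10% of the members, against 3.9% and 1.4%, and AAGGTCA in 11.4%, against 4.0% and 4.7%. For 37 of the members none of the 4 was found in this window. The gene Gabpa, which encodes the DNA-binding part of GABP, had 128 and 108 TPM in ACT_IL21, 146 and 147 TPM in ACT, and 111 and 140 TPM in N, with ACT above all other libraries, ACT_IL21 and N overlapping, and an adjusted p of 0.549 in ACT against N.

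Complex I takes electrons from NADH. Its 36 genes summed to 2196 and 2210 TPM in ACT_IL21, 2416 and 2313 TPM in ACT, and 1893 and 1979 TPM in N, and the pools did not overlap. In ACT against N 29 of the 36 had a positive log2 fold change, against 51.9% of all genes, with a median of 0.24. In ACT_IL21 against N 25 did, against 58.3% of all genes, with a median of 0.20. The 7 core subunits, which carry the flavin, the iron-sulfur clusters and the ubiquinone site, had a median of 0.00 in ACT against N with 4 of 7 positive. The 29 accessory subunits had a median of 0.32 with 25 positive. In ACT_IL21 against N the medians were 0.09 for core and 0.20 for accessory subunits. This difference between core and accessory genes was not tested.

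Core subunits are given by 2 examples, Ndufv1 and Ndufs1, named after their values were seen. They had the lowest log2 fold changes of the 7 core genes in ACT against N. Ndufs3 had the highest, 0.51 (limma adjusted p = 0.141), and all its ICOS+ libraries stood above N. Ndufv1, which holds the flavin, had 36.8 and 21.6 TPM in ACT_IL21, 38.5 and 23.0 TPM in ACT, and 45.8 and 26.5 TPM in N, where the libraries of a pool were further apart than the pools. Ndufs1, the largest iron-sulfur subunit, had 46.4 and 46.3 TPM in ACT_IL21, 47.1 and 57.0 TPM in ACT, and 55.0 and 59.0 TPM in N, a log2 difference of -0.14 in ACT against N (adjusted p = 0.768).

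Accessory subunits did not all share a direction. Ndufa11, the least abundant, had 7.33 and 8.03 TPM in ACT_IL21, 7.36 and 5.86 TPM in ACT, and 5.20 and 4.54 TPM in N. Ndufb4 and Ndufa2, picked out here after their values were seen, lay at the other end: Ndufb4 had 14.5 and 17.3 TPM in ACT_IL21, 10.8 and 5.35 TPM in ACT, and 16.0 and 11.3 TPM in N, and its ACT libraries stood below all others. Their log2 fold changes in ACT against N were -0.74 for Ndufb4 (adjusted p = 0.37) and -0.52 for Ndufa2 (adjusted p = 0.167). Ndufb4 also had the highest value of all members in ACT_IL21 against ACT, 0.96, with an adjusted p of 0.303.

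Complex II, the succinate dehydrogenase that also works in the citric acid cycle, has no mitochondrially encoded subunit and no called member, with 0 at an unadjusted p under 0.05 by limma in any comparison. Its sum was 426 and 366 TPM in ACT_IL21, 400 and 410 TPM in ACT, and 364 and 367 TPM in N, so ACT_IL21 reached into the range of N. Sdha, the flavoprotein, was level across the pools: 184 and 185 TPM in ACT_IL21, 176 and 197 TPM in ACT, and 174 and 213 TPM in N. Sdhb, the iron-sulfur subunit, had 59.0 and 47.8 TPM in ACT_IL21, 38.2 and 42.4 TPM in ACT, and 42.3 and 35.05 TPM in N. ACT_IL21 stood above the other pools for Sdhb, with a log2 difference of 0.39 from ACT (adjusted p = 0.429).

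The membrane anchors of complex II bind ubiquinone. Sdhc had 41.9 and 52.3 TPM in ACT_IL21, 40.3 and 44.2 TPM in ACT, and 37.8 and 32.3 TPM in N, with N lowest. Sdhd had 142 and 80.8 TPM in ACT_IL21, 146 and 126 TPM in ACT, and 109 and 85.9 TPM in N. The ACT_IL21 libraries of Sdhd spanned the whole range of N, and adjusted p in ACT against N was 0.571 for Sdhc and 0.397 for Sdhd.

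Complex III summed to 780 and 784 TPM in ACT_IL21, 883 and 862 TPM in ACT, and 705 and 714 TPM in N, with narrow pools that did not overlap. It had 0 called members in each comparison by limma. In ACT against N 2 of 8 were higher at an unadjusted p under 0.05, against 11.6% of all genes, and 0 were lower. Uqcrq, a small subunit near the ubiquinone site, had 44.3 and 50.4 TPM in ACT_IL21, 62.1 and 61.7 TPM in ACT, and 39.0 and 37.3 TPM in N. Its 3 pools did not overlap, and its log2 fold change in ACT against N was 0.69 ± 0.18 (SE, limma adjusted p = 0.0721).

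The most abundant complex III gene was Uqcrh, the acidic hinge protein that helps cytochrome c bind. It had 287 and 305 TPM in ACT_IL21, 369 and 368 TPM in ACT, and 258 and 307 TPM in N, with ACT above all other libraries. Uqcr11, the least abundant, had 28.8 and 36.2 TPM in ACT_IL21, 37.8 and 21.8 TPM in ACT, and 36.5 and 15.3 TPM in N, and its libraries differed more within ACT and N than the pools did. Uqcrfs1, the Rieske iron-sulfur protein, went the other way, with 42.4 and 28.8 TPM in ACT_IL21, 41.6 and 45.4 TPM in ACT, and 51.0 and 50.6 TPM in N. All its ICOS+ libraries stood below N, with a log2 difference of -0.53 in ACT_IL21 against N (adjusted p = 0.266).

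Cycs encodes the cytochrome c of somatic cells, which carries electrons between complexes III and IV and which starts apoptosis when it leaves the mitochondrion. Its level was 36.1 and 53.7 TPM in ACT_IL21, 60.1 and 75.3 TPM in ACT, and 43.1 and 59.1 TPM in N. ACT stood above ACT_IL21 and, narrowly, above N, while ACT_IL21 and N overlapped. The log2 difference was -0.60 in ACT_IL21 against ACT (adjusted p = 0.336) and 0.41 in ACT against N (adjusted p = 0.472).

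Complex IV, the cytochrome c oxidase, showed the highest ratio of ICOS+ pools to N among the 5 complexes in the deposited values and under each of 3 other scalings (median ratio, without ribosomal and receptor genes, and quantile normalization). It summed to 1958 and 1877 TPM in ACT_IL21, 2045 and 2101 TPM in ACT, and 1493 and 1622 TPM in N. The ratio of pool means was 1.23 for ACT_IL21 over N and 1.33 for ACT over N, and it lay between 1.14 and 1.19 and between 1.24 and 1.30 under the other scalings. All 12 tested genes had a positive log2 fold change in ACT against N, against 51.9% of all genes. For 10 of the 12 both ACT libraries lay above both N libraries, against 25.2% of all genes. For ACT_IL21 against N, 11 of 12 were positive, against 58.3% of all genes, with a median of 0.27. Under each of the 3 other scalings 9 of 12 were positive in ACT_IL21 against N.

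Cox4i1, the largest nuclear subunit and the site of regulation by ATP, had 470 and 496 TPM in ACT_IL21, 451 and 488 TPM in ACT, and 401 and 377 TPM in N. The ICOS+ libraries all stood above N, with log2 fold changes of 0.31 in ACT_IL21 against N (adjusted p = 0.256) and 0.27 in ACT against N (adjusted p = 0.328). Its partner isoform Cox4i2 was listed at 0 throughout. In the same way the libraries carried Cox6a1, Cox7a2, Cox7b and Cox8a and listed at 0 the tissue forms Cox6a2, Cox7a1, Cox7b2, Cox8b and Cox8c.

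Cox6a1, whose promoter is given above, had 203 and 177 TPM in ACT_IL21, 196 and 156 TPM in ACT, and 156 and 141 TPM in N. The lowest ACT library of Cox6a1 stood only just above the highest N library. Cox8a, a short membrane subunit, had 76.6 and 67.6 TPM in ACT_IL21, 100 and 64.4 TPM in ACT, and 57.9 and 37.7 TPM in N. Cox8a had N lowest and a log2 fold change of 0.77 in ACT against N, with an adjusted p of 0.178. Cox6b2, the testis counterpart of Cox6b1, was the least abundant tested member, with 0.73 and 3.41 TPM in ACT_IL21, 1.36 and 1.76 TPM in ACT, and 1.51 TPM and a listed 0 in N.

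Not every complex IV gene separated ACT_IL21 and N. Cox6c had 234 and 228 TPM in ACT_IL21, 282 and 261 TPM in ACT, and 174 and 243 TPM in N. Cox7a2 had 69.3 and 45.1 TPM in ACT_IL21, 88.0 and 74.7 TPM in ACT, and 50.1 and 59.7 TPM in N. In both genes ACT stood above all other libraries and ACT_IL21 overlapped with N. Cox7b had 162 and 160 TPM in ACT_IL21, 187 and 177 TPM in ACT, and 116 and 160 TPM in N, with the second N library just under the ACT_IL21 range. Ndufa4, named for complex I but a subunit of complex IV, had 89.9 and 109 TPM in ACT_IL21, 117 and 138 TPM in ACT, and 96.4 and 108 TPM in N. Its ACT_IL21 and N libraries overlapped, and Ndufa4l2, its relative known from low oxygen, was listed at 0.

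Complex V, the ATP synthase, summed to 4285 and 4395 TPM in ACT_IL21, 4763 and 4420 TPM in ACT, and 4249 and 3919 TPM in N. The pools did not overlap, by narrow gaps. The sums rested largely on Atp5b, which had 1667 and 1846 TPM in ACT_IL21, 2068 and 1712 TPM in ACT, and 1974 and 1730 TPM in N, with full overlap and a log2 difference of 0.03 in ACT against N (adjusted p = 0.96). Of the 14 tested genes, 13 had a positive log2 fold change in ACT against N and 10 in ACT_IL21 against N, with medians of 0.25 and 0.22. Over all genes 51.9% and 58.3% were positive. By limma 0 were called in any comparison. At an unadjusted p under 0.05, 3 were higher in ACT against N, against 11.6% of all genes. In ACT_IL21 against N 2 were higher, against 12.9% of all genes, and 0 were lower in either.

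Atp5o, the stalk protein that links the 2 parts of the synthase and confers oligomycin sensitivity, had 123 and 114 TPM in ACT_IL21, 100.5 and 80.8 TPM in ACT, and 83.6 and 68.7 TPM in N. ACT_IL21 stood above both other pools, and the log2 fold change of Atp5o against N was 0.63 (adjusted p = 0.104). Atp5k, a membrane subunit of the dimer interface, was the least abundant tested gene of the complex. It had 55.4 and 46.4 TPM in ACT_IL21, 50.8 and 61.5 TPM in ACT, and 46.0 and 40.1 TPM in N, with both N libraries lowest.

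The c subunit that forms the rotor ring is made from 3 genes with the same mature product. Atp5g3 carried most of the c subunit RNA, with 240 and 226 TPM in ACT_IL21, 191 and 252 TPM in ACT, and 169 and 198 TPM in N. Atp5g1 had 78.8 and 90.3 TPM in ACT_IL21, 97.6 and 65.5 TPM in ACT, and 106 and 72.4 TPM in N. The pools overlapped for Atp5g1, and for Atp5g3 ACT overlapped with both others. Because the c subunit genes and their pseudogenes are alike in the coding part, the division of reads among them is uncertain.

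The assembly factors and other genes were lower and more scattered. Leaving Cox7a2l aside, their mean levels were low, and the median of the 10 genes was 19.6 TPM. Cox7a2l shares its family with the complex IV subunit 7a and is described as a factor that joins complexes III and IV in supercomplexes. Whether its product does so in the strain used here was not examined. Cox7a2l stood apart in level and in direction. It lies on chromosome 17 at 83501918-83517330 on the minus strand, with no overlapping exon of another gene. It had 384 and 402 TPM in ACT_IL21, 435 and 523 TPM in ACT, and 570 and 608 TPM in N. The 3 pools did not overlap, with ACT_IL21 lowest and N highest, whereas most members had higher values in both ICOS+ pools than in N.

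In ACT_IL21 against N the log2 difference of Cox7a2l was -0.58 ± 0.14 (SE, limma adjusted p = 0.0646), and in ACT against N it was -0.30 (adjusted p = 0.317). It missed the threshold in the deposited values and passed it under those 3 scalings, with log2 values of -0.69, -0.64 and -0.69 and adjusted p of 0.0474, 0.0417 and 0.0276. The family members Cox7a2 and Cox7a2l stood the other way round in ACT and N, with Cox7a2 at 81.3 ± 9.42 TPM in ACT and 54.9 ± 6.82 TPM in N and Cox7a2l at 479 ± 61.8 TPM in ACT and 589 ± 26.4 TPM in N (SD, n = 2 each). The difference between these 2 genes was not tested.

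Ndufaf2, an assembly factor that binds a late intermediate of complex I, had 45.4 and 22.8 TPM in ACT_IL21, 43.3 and 43.1 TPM in ACT, and 18.8 and 15.3 TPM in N. It had the highest log2 fold change of all members in ACT against N, 1.30 ± 0.33 (SE, limma adjusted p = 0.0624). The ICOS+ libraries all stood above N, and the ACT_IL21 libraries lay far apart. Ndufaf6, another complex I factor and the least abundant of the set, had 3.45 and 0.79 TPM in ACT_IL21, 2.67 and 5.20 TPM in ACT, and 5.16 and 5.06 TPM in N. ACT_IL21 lay below N for Ndufaf6, with an adjusted p of 0.336.

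Other genes of the organelle were read from the same fit. Of 7 tested genes that feed ubiquinone by other routes, 2 were called higher in ACT against N, where 4.15% of all genes were. Etfb, the beta subunit of the electron transfer flavoprotein of fatty acid oxidation, had 51.2 and 65.1 TPM in ACT_IL21, 88.0 and 80.5 TPM in ACT, and 33.9 and 33.7 TPM in N, and its log2 fold change in ACT against N was 1.29 (adjusted p = 0.00723). Chdh, choline dehydrogenase, had 4.42 and 1.39 TPM in ACT_IL21, 15.5 and 10.7 TPM in ACT, and 1.61 and 0.37 TPM in N, with 2.88 in ACT against N (adjusted p = 0.0249). Both genes had ACT highest and no overlap of ACT with the other pools.

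Of 76 mitochondrial ribosomal protein genes, 1 was called higher in ACT against N, where 4.15% of all genes were. It was Mrps21, by 0.65 (log2, limma adjusted p = 0.0464). The median of the 76 genes was 0.06 there and 0.10 in ACT_IL21 against N. Among 13 citric acid cycle genes 12 were positive in ACT against N, against 51.9% of all genes, with a median of 0.13. By limma 0 were called, with 1 higher and 1 lower at an unadjusted p under 0.05, against 11.6% and 6.99% of all genes. Among 15 tested regulators of mitochondrial biogenesis 3 were positive, with a median of -0.10, 0 calls and 1 lower at an unadjusted p under 0.05. The members' median of 0.28 in ACT against N stands beside those values, and the difference was not tested.

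The remaining lists had 0 called genes in each comparison by limma. In ACT against N the median log2 fold change was 0.30 over 9 tested subunits and associated proteins, all outside the symbol rule except Cox7a2l, with 1 gene higher at an unadjusted p under 0.05. It was 0.17 over 8 further complex I assembly factors, with 1 higher, and 0.16 over 26 assembly factors of complexes II to V, with 1 lower. Inner membrane carriers and channels had a median of 0.16 over 12 genes with 1 higher, cristae and fusion genes 0.14 over 11 with 2 higher, and mitochondrial antioxidants 0.12 over 7 with 1 higher. Of all genes, 11.6% were higher and 6.99% lower at that p in ACT against N. In ACT_IL21 against N, 5 of the 12 carriers and channels were higher at that p and 0 were lower, with a median of 0.25. Of all genes, 12.9% were higher and 5.75% lower there, with a median of 0.10. Each of the other lists of this paragraph had 0 to 3 genes higher in that comparison and 0 to 1 lower.

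The members' annotated transcripts are short, and the size of the difference went with annotated length. The length of a gene is the median over its annotated protein-coding transcripts, which need not be that of its main transcript. Ndufs1 was given 651 bases and Uqcrc1 533 bases this way, and Ndufb2 2413 bases. Their median transcript was 718 bases, against 1884 bases over all tested genes with an annotated transcript, and 69.4% of them were under 1000 bases, against 25.8%. In ACT against N the 59 members under 1000 bases had a median log2 fold change of 0.34 with 91.5% positive, and the 26 longer members one of 0.13 with 65.4% positive. In ACT_IL21 against N the medians were 0.30 and -0.04. Other genes showed no such step: in ACT against N the medians were 0.01 for 3078 short genes and 0.03 for 9006 longer ones, and in ACT_IL21 against N they were 0.12 and 0.10.

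Across the 85 members, Spearman's rho between transcript length and log2 fold change was -0.42 in ACT against N and -0.44 in ACT_IL21 against N. Over 12168 genes it was -0.01 and -0.03. These values run across genes that share the same 6 libraries, and describe them only. Annotated length also went with role: the 7 core subunits of complex I had a median of 977 bases and the 29 accessory subunits one of 629 bases. The parts of length and role in the fold changes cannot be told apart here, and lengths of the transcripts present in these cells were not measured.

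**Figure D5:**
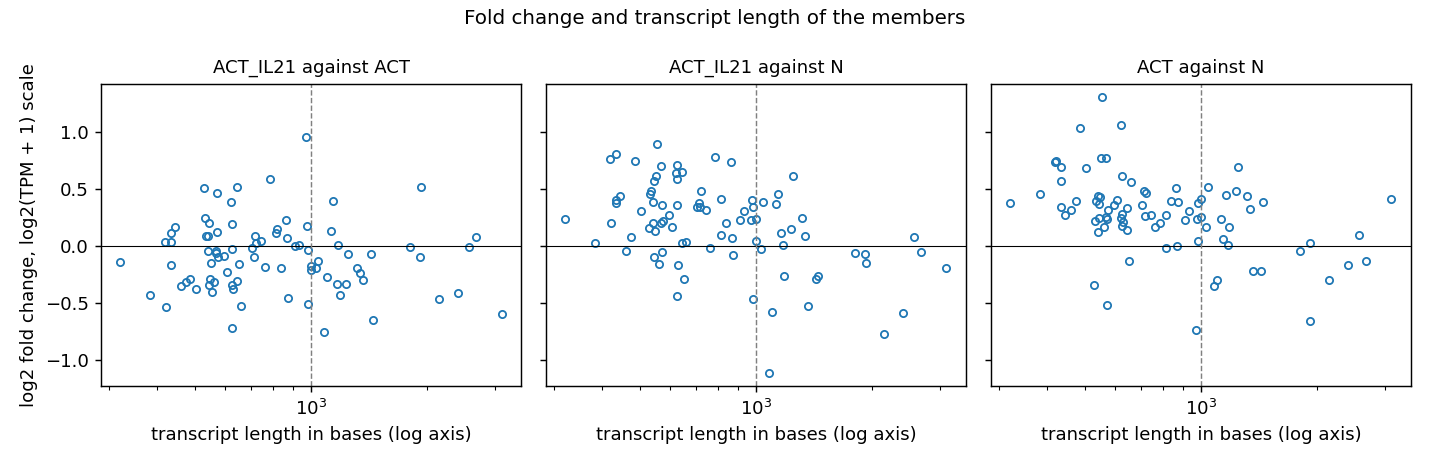
Log2 fold change of the 85 tested members against annotated transcript length in bases (log axis) in the 3 comparisons, with a dashed line at 1000 bases. Lengths are medians over the annotated protein-coding transcripts of a gene. In both comparisons with N the shorter members lie mostly above 0, and the longer ones lie around it, with medians of -0.04 in ACT_IL21 against N and 0.13 in ACT against N.

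Libraries of the same pool also differed in an ordered way. Across the members, the difference between the first and second library went with the GC content of the transcript in ACT (Spearman's rho 0.42 over 85 genes) and in N (0.51), but not in ACT_IL21 (-0.03). Cox8a, Atp5d and Uqcr11, GC-rich members named after their values were seen, were higher in the first library of both ACT and N, with 175 and 69.8 TPM in ACT and 125 and 64.1 TPM in N for Atp5d. Log2 fold changes had a rho with GC content of 0.40 in ACT_IL21 against ACT, 0.40 in ACT_IL21 against N and 0.08 in ACT against N. The part of GC content in the comparisons with ACT_IL21 was not tested.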

How the data were processed

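Per the labels' protocols, RNA of the 6 sorted pools was extracted with Qiagen RNeasy kits and amplified with the NuGEN Ovation kit, and per the series' design text it was sequenced on an Illumina MiSeq. The authors deposited gene-level TPM, made with Trimmomatic, Bowtie and RSEM on GRCm38, per the submitters' processing notes. Tool versions, annotation, read length and strandedness: not given in the sources used here. Reads that fit more than 1 gene are split by estimation in RSEM, which makes near-identical copies, pseudogenes and overlapping genes uncertain, and 29 of the 85 tested members share exon positions with another gene. TPM keeps no read numbers, so the depth is unknown and no counting interval is given.

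The 38355 entries were reduced to 38216 symbols by summing 139 repeated entries. The 13311 genes that reached 1 TPM in 2 or more of the 6 libraries were tested on log2(TPM + 1) with limma 3.58.1 in R 4.3.3: 1 linear model of pool over 6 libraries, empirical Bayes with an intensity trend (3 residual and 4.841 prior degrees of freedom), two-sided, Benjamini-Hochberg over all genes tested in each comparison. Fold changes on this scale understate those of low genes. The procedure was tested on simulated data with changes in abundant genes only, set larger than any seen in the members. That test does not cover differences of the members' size. Named members were those called, the most and least abundant and the lowest F test p in each complex, fixed isoform sets, Sdha to Sdhd and Cycs, and called genes of the other lists; 1 result that this rule would name is not reported here. The members, the lists and the rule were chosen with earlier results of these data known. Transcript lengths and GC contents came from GENCODE M21 (median over protein-coding transcripts) and promoters from RefSeq. Sums by complex and medians over members carry no test.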

Additional observations from a re-analysis of the deposited data

How the results depend on the processing

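The members called were few and depended on the processing. In ACT against N, where 3 were called, 0 were called without the filter on low values, 0 without the intensity trend, 1 with only the 2 pools compared and 0 to 1 when 1 library was left out. In ACT_IL21 against N, where 1 was called, the counts were 0, 0, 2 and 0 to 2, and in ACT_IL21 against ACT they stayed at 0. The F test, which called 3, called 1 with a pseudocount of 0.1 TPM, 1 under median ratio scaling, 1 after scaling without ribosomal and receptor genes, 0 without the filter, 0 without the trend and 0 to 1 with a library left out. With a replicate block 5 members were called in ACT against N and 2 in ACT_IL21 against N. The labels share only replicate numbers, and deviations of same-numbered libraries over all genes had a correlation of 0.21 between ACT and N, 0.00 between ACT_IL21 and ACT and 0.00 between ACT_IL21 and N. Over the 85 members the same correlations were 0.499, -0.105 and -0.154. Because nothing in the labels ties same-numbered libraries together and there are only 2 numbers, they were not taken as pairs, although ACT and N share this pattern among the members.

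Over all genes, calls in ACT against N numbered 743, against 469 without the filter, 417 with 2 pools and 205 to 526 with a library left out. For ACT_IL21 against N they were 677, against 410 without the filter and 75 to 728 with a library left out, and for ACT_IL21 against ACT 259, against 124, 92 with 2 pools and 0 to 81. A lone library left in a pool was assumed to vary like the others.

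The members' median log2 fold change in ACT against N was 0.255 with a pseudocount of 5 TPM, 0.238 under median ratio scaling, 0.247 without ribosomal and receptor genes, 0.186 under quantile normalization and 0.274 to 0.327 with a library left out. In ACT_IL21 against N it was 0.188, 0.093, 0.15, 0.084 and 0.16 to 0.24. In ACT_IL21 against ACT the 3 scalings gave -0.165, -0.117 and -0.126, and leaving out a library gave -0.181 to -0.07. Quantile normalization moved the median of all genes in ACT_IL21 against N to -0.05, from which the members' value there is read.

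Summed levels of the members in ACT_IL21 were 9695, 10070 and 10110 TPM under median ratio scaling, scaling without ribosomal and receptor genes and quantile normalization, and in N 9665, 9642 and 9627 TPM. By complex, ACT_IL21 had 2086, 2166 and 2125 TPM in complex I, 740.2, 768.6 and 765.9 TPM in complex III, and, under median ratio scaling, 1816 TPM in complex IV and 4109 TPM in complex V. In the same order N had 373.7, 372.7 and 383.5 TPM in complex II and 726.2, 724.2 and 741.8 TPM in complex III, and under quantile normalization 2042 TPM in complex I. Under quantile normalization ACT had 396.2 TPM in complex II, 857.1 TPM in complex III and 2030 TPM in complex IV. The sum of ACT_IL21 was below that of N for complex V under median ratio scaling and for complex II under quantile normalization.

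Of 1389 recomputed values of 29 named members, 1266 stayed on their side of the threshold and, where uncalled, within 1 SE, 67 uncalled ones moved further, 42 lost a call, 14 newly passed the threshold and 0 changed sign while called in either version. Some settings cannot change a gene's log2 fold change. They are those of the filter, the trend, the replicate block, 2 pools only and a left-out library of the third pool. There an uncalled value counts as having stayed unless it newly passed the threshold, and its sign is fixed. Among uncalled values 52 had the opposite sign, such as Atp5g1 and Atp5b in ACT against N. The causes were not tested. That each pool has 2 libraries of unknown depth limits every value given here.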
